A study of Mus musculus with 6 samples.

Results

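The genes of the piRNA pathway and the chromatoid body were followed through testis libraries of mice labelled L3mbtl2 cKO and control. The group was defined by name, with 32 genes that encode PIWI proteins, piRNA-processing enzymes, Tudor-domain proteins and proteins of the chromatoid body. Of these, 30 were found by symbol in every table, and Gtsf2 was found by its Entrez identifier under the older symbol BC048502, so that 31 of the 23253 listed genes were measured. Spocd1 was in no table. RefSeq gives it 2 transcripts, both of them predicted models, a class that the tables do not name at all, so Spocd1 was given no value here instead of a 0.

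The libraries came from poly(A)-selected, DNase-treated total RNA of whole testes from C57BL/6 mice aged 8 months, 3 labelled L3mbtl2 cKO (conditional knockout) and 3 labelled control. L3MBTL2 belongs to PRC1.6, a Polycomb complex, and the comparison asks how its loss alters the testicular transcriptome. No label gives the Cre line, the cells that lost the gene or the alleles of the controls. Whether each library is a different animal is not stated either, so the p-values below rest on differences among libraries that could be technical.

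The targeted gene went against the labels. The expected count of L3mbtl2 was 1030, 1105 and 1031 under the cKO label, against 658, 705 and 673 under the control label, a log2 fold change of 0.67 (SE 0.10) with the cKO label on the higher side. In edgeR's quasi-likelihood test its unadjusted p was 0.000182, rank 6 of 18269 genes. Its adjusted p of 0.166 was the lowest that any gene reached in that test. Genes far lower in rank shared that value to the digits given, such as Cst9 at rank 2343. The two-sided exact permutation p of the gene was 0.1, the smallest that 3 against 3 allows. In FPKM (fragment counts scaled for transcript length and library size) it was 15.9, 17.1 and 16.0 under the cKO label, against 14.0, 14.9 and 13.6 under the control label. The difference was smaller on this scale, with a log2 fold change of 0.19 by limma on log2(FPKM + 1) (adjusted p = 0.224). The part of transcript length in the gap between the 2 scales was not tested. File names carry the opposite genotype from the sample titles. The groups here follow the titles and genotype labels, every direction below is drawn by those labels, and each would turn if they were exchanged. Expected counts summed to 18604191 to 18822050 in the libraries labelled cKO and to 17689205 to 18083291 in those labelled control. The libraries labelled cKO resembled each other, with correlations of log2 CPM (counts scaled to library size) across genes of 0.981 to 0.982, while those labelled control correlated at 0.937 to 0.972. Control replicate 2 matched the cKO-labelled libraries as closely as they matched each other, at 0.980 to 0.982.

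piRNAs are small RNAs of the germ line that guide PIWI proteins of the Argonaute family to transposon and other transcripts. Long precursors are cut at the surface of mitochondria, loaded onto a PIWI protein, trimmed and methylated at the 3′ end. In the fetal testis the pathway directs DNA methylation of transposons, and in meiotic and haploid cells a later wave of pachytene piRNAs appears. Tudor proteins bind PIWI proteins through arginines that PRMT5 and its partner WDR77 methylate, and they build the granules where this takes place, the intermitochondrial cement of spermatocytes and the chromatoid body of round spermatids.

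The promoters of these genes often held the E-box CACGTG, a palindrome that is bound by MAX and its partner MGA, which is a subunit of PRC1.6. RefSeq promoter windows (build GRCm38.p6, whose primary sequence is that of mm10, 250 bases before to 50 after each annotated start) were given for 25 of the 32 genes, 35 windows in all. CACGTG was in 13 of these 35 windows (37.1%), against 2349 of 32851 windows of all genes (7.15%). Counted by gene, 11 of 25 held it in at least 1 window (44%), against 2187 of 27025 genes (8.09%). These were Piwil1, Mael, Ddx4, Ddx25, Tdrd1, Tdrd9, Mov10l1, Pld6, Fkbp6, Wdr77 and Dnmt3l. The E2F letters TTCCCGC, searched on both strands because E2F6 of PRC1.6 binds such sites, were in 2 windows (5.71%), those of Ddx4 and Tdrd5, against 4.6% of all windows. The short MYB letters AACGG or AACTG, searched on both strands because A-MYB drives pachytene piRNA genes, were in 65.7% of these windows and 55.1% of all. No matches of different motifs overlapped in these windows. The shares are descriptions without a test, windows of a gene can overlap, and a match is not a binding site.

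Windows of 4 genes with an E-box are shown, 3 of which lay on the cKO side of the comparison (Ddx4, Piwil1 and Mael) and 1 on the control side (Fkbp6). Capitals mark CACGTG and, in Ddx4, the E2F letters on the opposite strand. Ddx4 (chr13:112652261-112652560, minus strand) has both, beginning 29 and 136 bases before the start. Piwil1 (chr5:128735996-128736295, plus strand) has 2 E-boxes, beginning 179 and 154 bases before the start, Fkbp6 (chr5:135349995-135350294, minus strand) has 2, at 101 and 37, and Mael (chr1:166238695-166238994, minus strand) has 1, at 223.
Ddx4: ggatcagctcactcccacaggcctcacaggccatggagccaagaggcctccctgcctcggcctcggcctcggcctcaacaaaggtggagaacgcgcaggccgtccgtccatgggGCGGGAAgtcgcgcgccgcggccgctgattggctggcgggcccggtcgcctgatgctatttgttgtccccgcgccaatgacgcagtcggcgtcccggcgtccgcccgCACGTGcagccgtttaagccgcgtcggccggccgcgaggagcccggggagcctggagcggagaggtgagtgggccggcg
Piwil1: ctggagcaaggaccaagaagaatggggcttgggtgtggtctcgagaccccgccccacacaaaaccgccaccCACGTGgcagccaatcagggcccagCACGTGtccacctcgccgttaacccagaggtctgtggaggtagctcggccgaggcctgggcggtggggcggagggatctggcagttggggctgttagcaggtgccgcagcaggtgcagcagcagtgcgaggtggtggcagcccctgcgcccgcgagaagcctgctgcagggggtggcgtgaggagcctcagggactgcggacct
Mael: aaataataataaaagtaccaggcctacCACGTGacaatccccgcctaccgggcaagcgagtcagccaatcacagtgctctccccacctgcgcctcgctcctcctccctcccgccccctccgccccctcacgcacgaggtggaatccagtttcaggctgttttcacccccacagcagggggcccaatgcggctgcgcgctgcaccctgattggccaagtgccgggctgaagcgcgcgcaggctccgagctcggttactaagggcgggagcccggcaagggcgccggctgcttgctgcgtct
Fkbp6: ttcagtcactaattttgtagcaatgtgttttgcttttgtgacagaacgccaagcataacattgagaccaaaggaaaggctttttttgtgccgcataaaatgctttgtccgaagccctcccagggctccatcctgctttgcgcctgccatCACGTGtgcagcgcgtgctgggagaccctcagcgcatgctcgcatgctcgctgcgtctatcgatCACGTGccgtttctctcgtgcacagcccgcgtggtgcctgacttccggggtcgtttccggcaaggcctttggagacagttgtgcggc

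Transcript levels of the pathway, in FPKM, differed widely between its genes. Of the 31 genes, 6 averaged at least 100 FPKM over the 6 libraries, 17 lay between 10 and 100, 6 between 1 and 10, and 2 below 1. Mael alone gave 29.6% of the summed FPKM of the group, and the 5 highest genes gave 66.4%. The highest were Mael, Gtsf1, Ddx25, Ddx4, Kif17 and Tdrd6, at 661, 283, 235, 178, 128 and 121 FPKM (means of 6 libraries), genes of the biogenesis and the chromatoid body blocks. The 6 lowest were Dnmt3l, Exd1, Pnldc1, Morc1, Dnd1 and Piwil4, at 6.60, 5.03, 4.52, 1.70, 0.973 and 0.168 FPKM. With a fixed length per gene in place of the authors' length, the order was the same except that Fkbp6 and Tdrd9, at 29.9 FPKM each, exchanged places.

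**Figure D1:**
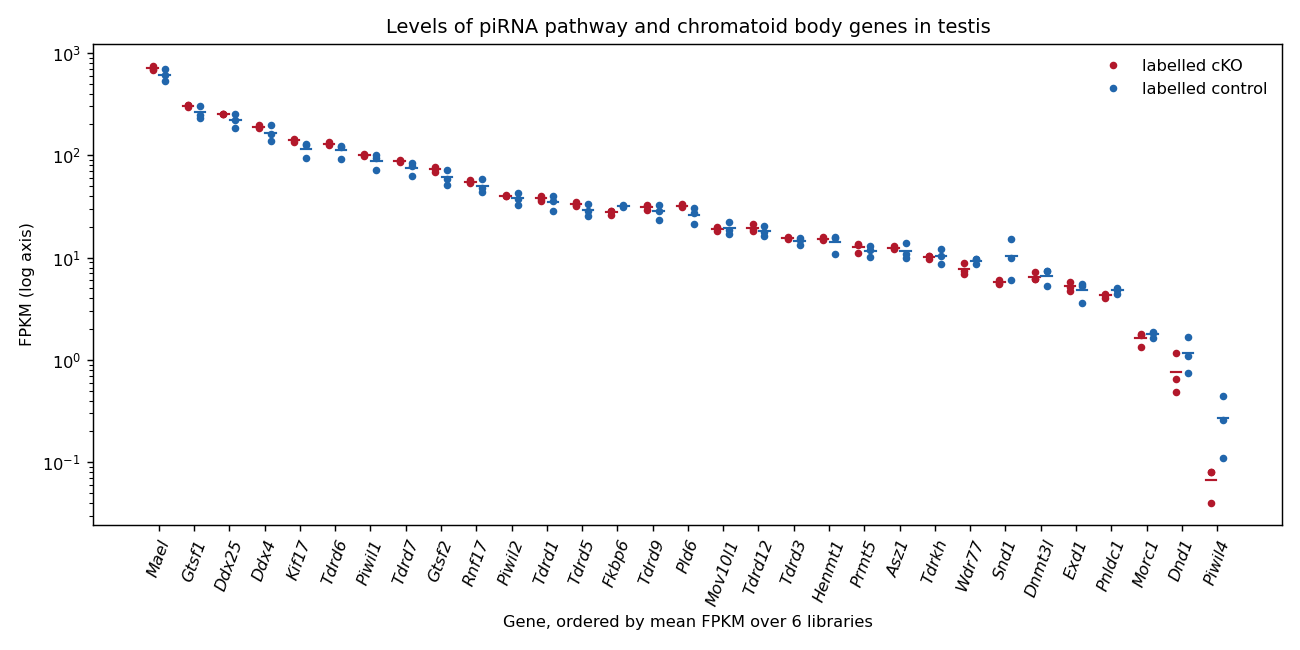
FPKM on a log axis of the 31 measured genes, ordered by their mean over 6 libraries; points are libraries (red, labelled cKO; blue, labelled control) and bars are group means. Mael stands highest at 661 FPKM and Piwil4 lowest at 0.168, and blue points spread wider than red points for most genes.

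Most members lay slightly higher in the libraries labelled cKO, and no member passed the test. Of the 30 genes that passed the filter on low counts (Piwil4 did not), 24 had a positive log2 fold change and 6 a negative one, against 49.5% positive and 50.5% negative among all 18269 genes tested. The median was 0.21 on the log2 scale, a 1.16-fold difference, against -0.0048 for all genes. edgeR called 0 members higher and 0 lower at an adjusted p of 0.05, as it called 0% of all genes in each direction. At an unadjusted p of 0.05 it had 5 members higher (Kif17, Tdrd7, Pld6, Tdrd5 and Gtsf2, against 8.85% of all genes) and 1 lower (Snd1, against 18.8%). DESeq2 called 0 members higher and 0 lower of 29, where it called 0.547% and 9.38% of all genes, and limma on log2(FPKM + 1) also called 0 and 0 of 30 (0.0065% and 0% of all genes).

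The groups did not overlap in CPM scaled by TMM (trimmed mean of M-values) for 9 members that lay higher under the cKO label, against 18% of all genes. These were Piwil1, Mael, Pld6, Tdrd3, Tdrd5, Tdrd6, Tdrd7, Ddx25 and Kif17. For 1 member, Fkbp6, all libraries labelled cKO lay below all labelled control, against 19.8% of all genes. The count of calls rested on a single library. When control replicate 2 was left out, edgeR called 10 members higher (Gtsf1, Gtsf2, Mael, Pld6, Tdrd5, Tdrd7, Tdrd9, Rnf17, Ddx4 and Ddx25, against 11% of all genes) and Snd1 lower (against 20.7%), and the members' median came to 0.35. When control replicate 3 was left out, 0 members were called in either direction (0.0108% and 0% of all genes) and it came to 0.12. By gene, leaving out control replicate 2 enlarged the log2 fold change by over 1.5 times for 16 of 30 members, and leaving out control replicate 3 shrank it by over 1.5 times, or turned its sign, for 20 of 30.

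**Figure D2:**
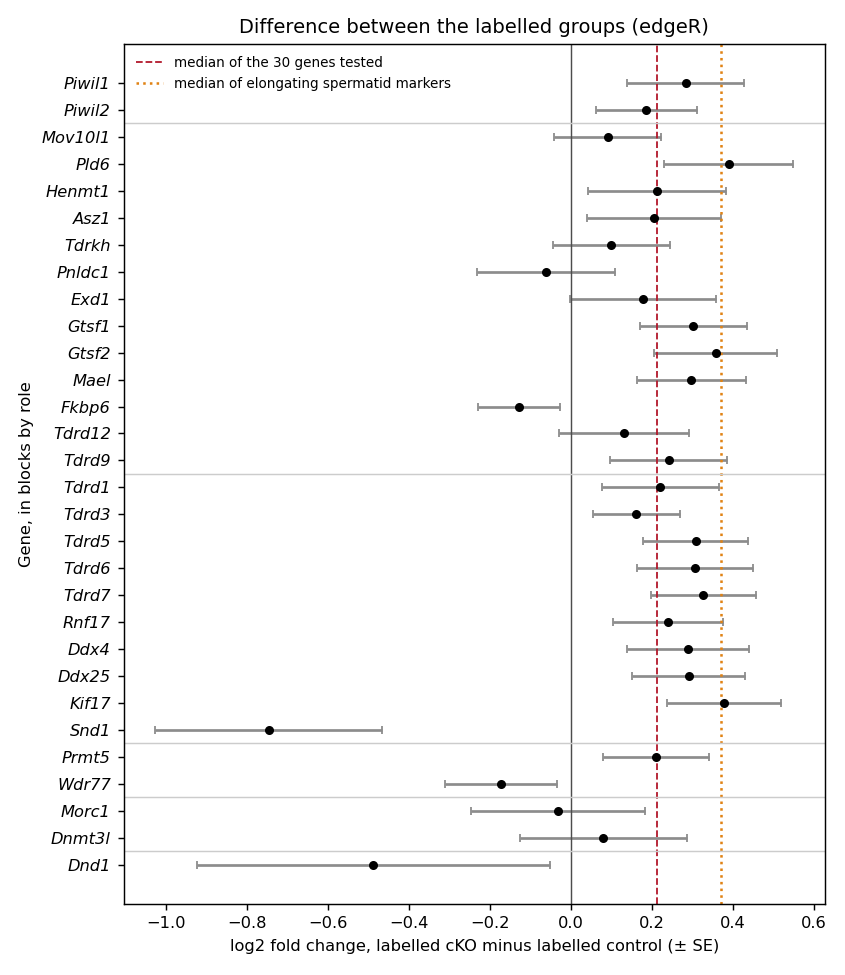
Log2 fold change of the 30 genes tested, labelled cKO minus labelled control, with its SE from edgeR, in blocks by role. Most points lie right of 0 around the dashed median of 0.21, and Snd1 at -0.75, Dnd1, Wdr77, Fkbp6, Pnldc1 and Morc1 lie left of it.

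Of the PIWI proteins, Piwil1 and Piwil2 were well read and Piwil4 was close to the limit of listing. Piwil1 encodes MIWI, the PIWI protein of pachytene spermatocytes and round spermatids (chromosome 5, 128736071 to 128755474 in RefSeq's GRCm38.p6 annotation, as for the genes below). It stood at 99.3, 99.98 and 104 FPKM in the libraries labelled cKO, against 94.7, 99.7 and 71.6 FPKM in those labelled control. The groups differed mainly through control replicate 3, and on the FPKM scale the highest control lay above the lowest cKO library, although the scaled counts did not overlap (log2 fold change 0.28, SE 0.14, edgeR adjusted p = 0.22). Piwil2 encodes MILI, which acts from fetal germ cells to round spermatids. It averaged 40.3 ± 0.696 FPKM in the libraries labelled cKO and 37.8 ± 5.01 in those labelled control (SD, n = 3 each; log2 fold change 0.19, SE 0.13).

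Piwil4 encodes MIWI2, the nuclear PIWI protein of fetal prospermatogonia. Its expected counts were 2, 4 and 4 under the cKO label, against 5, 12 and 20 under the control label, which correspond to 0.04, 0.08 and 0.08 FPKM and to 0.11, 0.26 and 0.44 FPKM. The groups did not overlap, but the gene was left out by the count filter and a fold change from so few reads carries a large counting error.

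Among the factors that make and load piRNAs, Mael was the most abundant. Its product is a nuage protein needed for transposon silencing (chromosome 1, 166201385 to 166238744). Mael had 748, 683 and 691 FPKM in the libraries labelled cKO, against 615, 697 and 533 in those labelled control. Control replicate 2 lay within the cKO range in FPKM and just below it in scaled counts, and the other 2 lay below it in both (log2 fold change 0.30, SE 0.14, edgeR adjusted p = 0.191).

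Gtsf1 and Gtsf2 are neighbouring paralogs on chromosome 15 (103402458 to 103430445 and 103438956 to 103449964), and GTSF1 is a small zinc finger protein that assists cleavage by PIWI proteins. Gtsf1 had 310.2, 307 and 294 FPKM in the libraries labelled cKO, against 248, 306 and 233 in those labelled control. Gtsf2 had 69.3, 76.5 and 73.1 FPKM in the libraries labelled cKO, against 58.3, 72.2 and 51.8 in those labelled control. In both genes control replicate 2 lay among the cKO libraries and control replicates 1 and 3 lay lower (log2 fold change 0.30, SE 0.13, and 0.36, SE 0.15; edgeR adjusted p = 0.183 and 0.179). All their expected counts were whole numbers, so the deposited values show no sharing of reads between the paralogs.

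Pld6 encodes the mitochondrial nuclease that cuts piRNA precursors, and it had the largest positive difference of the group. It stood at 31.6, 33.4 and 30.9 FPKM in the libraries labelled cKO, against 27.2, 30.6 and 21.1 in those labelled control. All cKO values lay above all controls, by a narrow margin over control replicate 2 (log2 fold change 0.39, SE 0.16, edgeR adjusted p = 0.174). Its expected counts were not whole numbers, so some of its reads were shared with other genes.

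The helicase genes lay close together. Tdrd9, a DExH-box helicase with a Tudor domain, averaged 31.4 ± 1.76 FPKM in the libraries labelled cKO and 28.3 ± 4.79 in those labelled control, and Tdrd12, a related helicase whose expected counts include shared reads, 19.4 ± 1.56 and 18.2 ± 2.15. Mov10l1, the helicase that starts the processing of precursors, averaged 19.2 ± 0.922 and 19.3 ± 2.72 FPKM (SD, n = 3 each), with a log2 fold change of 0.090 (SE 0.13) that turned to -0.0054 when libraries were scaled by their totals. None of these differences passed edgeR's test (adjusted p = 0.28, 0.588 and 0.653).

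Genes of the mitochondrial and later steps had small differences of either sign. Asz1 and Tdrkh, which encode proteins of the mitochondrial surface, had log2 fold changes of 0.20 (SE 0.17) and 0.10 (SE 0.14), and Henmt1, the 3′-end methyltransferase, 0.21 (SE 0.17). Tdrkh was -0.017 by FPKM. Its span overlaps that of Oaz3, an elongating spermatid marker that averaged 1604 FPKM under the cKO label and 1323 under the control label. Whether reads of Oaz3 entered the values of Tdrkh was not tested. Exd1, a partner of TDRD12, had 0.18 (SE 0.18) and an expected count that was shared with other genes. Pnldc1, the enzyme that trims 3′ ends, averaged 4.26 ± 0.176 FPKM in the libraries labelled cKO and 4.77 ± 0.329 in those labelled control, a log2 fold change of -0.062 (SE 0.17). Its FPKM values did not overlap between the groups, while its scaled counts did. The adjusted p of these genes in edgeR ran from 0.407 for Henmt1 to 0.817 for Pnldc1.

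Fkbp6, a co-chaperone that acts with HSP90 in loading PIWI proteins, was, with Pnldc1, on the control side of these 13 factors (chromosome 5, 135291704 to 135351809). It had 26.2, 28.8 and 28.5 FPKM in the libraries labelled cKO, against 31.5, 31.6 and 33.0 in those labelled control. All cKO values were lower, and here control replicate 2 sided with the other controls. The difference was small, with a log2 fold change of -0.13 (SE 0.10), and did not pass in edgeR (adjusted p = 0.399; 0.467 without control replicate 2 and 0.493 without control replicate 3).

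The Tudor proteins and the chromatoid body proteins had 9 of 10 positive differences and a median of 0.29, and ranged from -0.75 for Snd1 to 0.38 for Kif17. Kif17 encodes a kinesin that carries the coactivator ACT, the product of Fhl5, and enters the chromatoid body (chromosome 4, 138262251 to 138301973). Kif17 had 146, 142 and 134 FPKM in the libraries labelled cKO, against 128, 125 and 94.5 in those labelled control. All cKO libraries lay above all controls (log2 fold change 0.38, SE 0.14; unadjusted p = 0.0284, adjusted p = 0.167 in edgeR). Of the members, it had the smallest p.

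Tdrd6, a scaffold of the chromatoid body, had 130.1, 126 and 134 FPKM in the libraries labelled cKO, against 124, 122 and 91.5 in those labelled control. Tdrd7, a Tudor protein of the same structure, had 86.2, 90.6 and 87.4 FPKM in the libraries labelled cKO, against 78.6, 83.8 and 62.5 in those labelled control. For both, the groups were apart and control replicate 3 was far below the rest (log2 fold change 0.31, SE 0.14, and 0.33, SE 0.13; edgeR adjusted p = 0.199 and 0.171).

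Tdrd5, which binds piRNA precursors, had 33.0, 32.1 and 35.0 FPKM in the libraries labelled cKO, against 28.3, 33.4 and 25.3 in those labelled control. Its FPKM values overlapped through control replicate 2, while its scaled counts did not (log2 fold change 0.31, SE 0.13, edgeR adjusted p = 0.177). Tdrd1, the scaffold of the intermitochondrial cement, averaged 37.9 ± 2.09 FPKM in the libraries labelled cKO and 34.8 ± 5.87 in those labelled control (SD, n = 3 each). Tdrd3, a reader of methylated arginine that is made in many tissues, averaged 15.5 ± 0.483 and 14.5 ± 1.25 FPKM; it had the smallest difference of this block (log2 fold change 0.16, SE 0.11, edgeR adjusted p = 0.321).

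Rnf17 encodes a RING and Tudor protein of germ cell granules. It had 54.8, 53.8 and 57.6 FPKM in the libraries labelled cKO, against 48.4, 58.2 and 43.4 in those labelled control. The highest value was in control replicate 2, so the groups overlapped (log2 fold change 0.24, SE 0.14, edgeR adjusted p = 0.254). Its expected counts were not whole numbers, so they include shared reads.

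Ddx4, the mouse Vasa helicase and a defining germ cell protein (chromosome 13, 112598333 to 112652633), had 189, 184 and 198 FPKM in the libraries labelled cKO, against 161, 199 and 139 in those labelled control. Ddx25 encodes a gonadotropin-regulated helicase of spermatids and had 251, 250.3 and 252 FPKM in the libraries labelled cKO, against 220.1, 254 and 183 in those labelled control. The cKO values of Ddx25 differed by an SD of 0.652 FPKM, while those of the controls had an SD of 35.6. In both helicase genes control replicate 2 had the highest FPKM of all 6 libraries, although the scaled counts of Ddx25 did not overlap, and the log2 fold change was 0.29 (SE 0.15 and 0.14; edgeR adjusted p = 0.227 and 0.206).

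Among the members tested, Snd1 had the largest difference in size. It encodes a Tudor and staphylococcal nuclease-like protein that is made in most cell types and is also found in germ cell granules (chromosome 6, 28480337 to 28935162). Snd1 had 5.67, 6.06 and 5.47 FPKM in the libraries labelled cKO, against 9.97, 6.10 and 15.1 in those labelled control. Control replicate 2 was close to the cKO values, whereas replicates 1 and 3 were well above them (log2 fold change -0.75, SE 0.28; unadjusted p = 0.0294, adjusted p = 0.167 in edgeR). Without control replicate 2 it was -0.98 with an adjusted p of 0.00989, without control replicate 3 it was -0.40 with an adjusted p of 0.258 (edgeR), and over all alternatives its adjusted p ran from 0.00989 to 0.377. The 3 control libraries took the same order in Snd1 as in the summed FPKM of the Leydig, Sertoli and macrophage markers given below; the part of somatic cells in this difference was not tested.

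**Figure D3:**
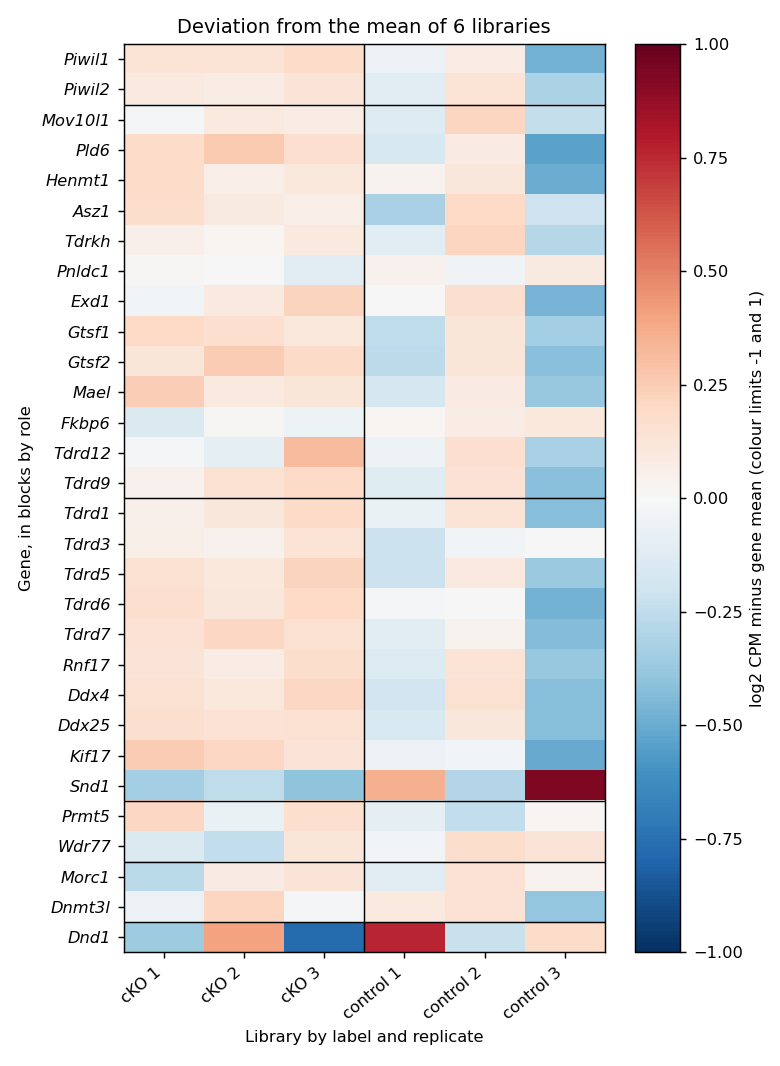
Log2 CPM of each of the 30 genes tested minus its mean over 6 libraries, in blocks by role (red, above the mean; blue, below; the colour scale ends at -1 and 1). Most rows are faintly red in the 3 libraries labelled cKO and in control replicate 2, and blue in control replicates 1 and 3, while Snd1 shows the reverse.

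The methyltransferase Prmt5 and its partner Wdr77 lay on opposite sides. Prmt5 averaged 12.6 ± 1.23 FPKM in the libraries labelled cKO and 11.7 ± 1.37 in those labelled control (log2 fold change 0.21, SE 0.13), and Wdr77 averaged 7.75 ± 1.07 and 9.37 ± 0.583 (log2 fold change -0.17, SE 0.14; edgeR adjusted p = 0.293 and 0.399; SD, n = 3 each). A ratio within a library does not depend on how libraries are scaled to each other. The FPKM ratio of Wdr77 to Prmt5 was 0.549, 0.616 and 0.679 in the libraries labelled cKO, against 0.730, 0.940 and 0.755 in those labelled control. All cKO ratios were lower (log2 difference -0.39, SE 0.14), with a two-sided exact permutation p of 0.1, the smallest the design allows, and 0.3 after adjustment over 3 ratios. The expected counts of Wdr77 were not whole numbers, so the ratio rests in part on reads shared with other genes.

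The ratio of Piwil1 to Piwil2 compares the meiotic and haploid PIWI protein with the one of all stages. It was 2.48, 2.52 and 2.53 in the libraries labelled cKO, against 2.52, 2.32 and 2.17 in those labelled control (log2 difference 0.10, SE 0.062, two-sided exact permutation p = 0.3). The ratio of Tdrd6 to Tdrd1 was 3.62, 3.34 and 3.35 under the cKO label, against 3.44, 3.05 and 3.23 under the control label (log2 difference 0.086, SE 0.064, exact permutation p = 0.3). In both ratios control replicate 1 lay within the cKO range.

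The remaining members were little read. Morc1, an ATPase of transposon silencing, averaged 1.62 ± 0.247 FPKM in the libraries labelled cKO and 1.77 ± 0.127 in those labelled control, with a log2 fold change of -0.032 (SE 0.21). Dnmt3l, the cofactor of de novo DNA methylation, averaged 6.54 ± 0.603 and 6.65 ± 1.22 FPKM, with a log2 fold change of 0.080 (SE 0.21) that was negative by library totals and by FPKM. Dnd1, a regulator of translation in early germ cells, averaged 0.770 ± 0.356 and 1.18 ± 0.470 FPKM (log2 fold change -0.49, SE 0.44, edgeR adjusted p = 0.455; SD, n = 3 each), with shared reads and an overlap with the gene Wdr55. Leaving out a library moved Dnd1 between -0.92 (without cKO replicate 2) and -0.16 (without control replicate 1).

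The libraries labelled cKO lay closer together than those labelled control, for the members as for most genes. For 28 of 31 members the SD of FPKM was smaller among the libraries labelled cKO than among those labelled control, and the median coefficient of variation was 4.42% under the cKO label and 16.2% under the control label. The same held for 80.4% of all genes tested, whose median coefficients of variation were 8.45% under the cKO label and 18.9% under the control label. Control replicate 3 was the lowest of the 6 libraries for 21 of 30 members (70%), against 35.5% of all genes tested. Control replicate 2 was the highest for 6 members (20%), against 7.96% of all genes. The median deviation of the members from their own mean was 0.11, 0.10 and 0.13 in the libraries labelled cKO, against -0.11, 0.12 and -0.37 in those labelled control, so control replicate 2 stood with the libraries labelled cKO.

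Markers of other cells moved with these values, in the opposite direction for somatic cells. Leydig cells make testosterone, Sertoli cells support the germ cells, and macrophages lie between the tubules. Leydig markers, 12 in all, summed to 1486, 1645 and 1508 FPKM under the cKO label, against 4257, 2102 and 10311 under the control label. Sertoli markers, 16 in all, summed to 1162, 1193 and 1121 FPKM under the cKO label, against 2111, 1466 and 3792 under the control label. For 12 macrophage markers the sums were 72.9, 75.1 and 63.4 FPKM under the cKO label, against 153, 68.9 and 303 under the control label. Control replicate 3 was highest in each list, and control replicate 2 was nearest to, or within, the cKO values. No marker of these lists was at 0 in any library. All 11 Leydig, 16 Sertoli and 12 macrophage markers tested were lower under the cKO label, with medians of -1.80, -0.998 and -1.42. Insl3, the most abundant Leydig transcript, averaged 1022 ± 79.8 FPKM in the libraries labelled cKO and 3840.3 ± 3122 in those labelled control, and Clu, the most abundant Sertoli transcript, 399.8 ± 9.26 and 929.6 ± 489 (SD, n = 3 each). The next most abundant, Ptgds and Defb19, had log2 fold changes of -1.54 and -0.97, and the macrophage genes Lyz2 and Cd74 had -1.42 and -0.66. edgeR called 0 of these markers at an adjusted p of 0.05. Without adjustment, at the same threshold, it had 11 Leydig, 16 Sertoli and 9 macrophage markers lower, against 18.8% of all genes. DESeq2 called 7, 15 and 6 lower, against 9.38% of all genes. Myoid and endothelial markers had medians of -0.61 (6 of 7 negative) and -0.42 (7 of 8 negative), with Actg2 at 0.33, Myl9 at -0.79, Cldn5 at -0.53 and Egfl7 at 0.024.

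Most markers of spermatocytes and all those of spermatids lay on the same side as most members, while most spermatogonium markers lay on the other. Spermatocyte markers had a median of 0.25 (16 of 18 positive), round spermatid markers 0.34 (14 of 14) and elongating spermatid markers 0.37 (11 of 11). Spermatogonium markers had a median of -0.44 (11 of 16 negative), with Dmrtb1 at 0.36 and Uchl1 at -0.42. The members' median of 0.21 was below those of all 3 later germ cell lists, and the Tudor and chromatoid body block at 0.29 lay between spermatocytes and spermatids. Ldhc, a spermatocyte enzyme, averaged 2139 ± 47.7 FPKM in the libraries labelled cKO and 1856 ± 266 in those labelled control, and Prm1, a protamine of spermatids, 7818 ± 406 and 6402 ± 1180 (SD, n = 3 each). Syce1, Pgk2, Actl7b and Prm2 had log2 fold changes of 0.33, 0.34, 0.36 and 0.37. In whole testis, fewer cells of a type and less RNA per cell cannot be told apart. The part of cell makeup in the members' values was not tested.

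**Figure D4:**
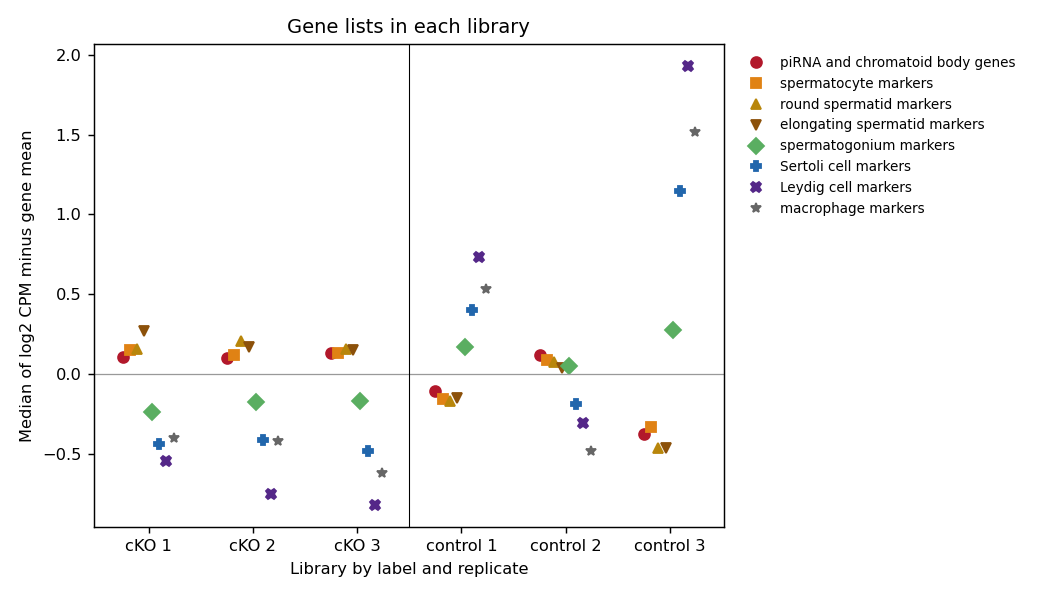
Median over each gene list of log2 CPM minus the gene's mean, for each library by label and replicate. The piRNA and chromatoid body genes lie close to the spermatocyte markers in every library, lowest in control replicate 3 (-0.37), where Leydig markers are highest (1.93).

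Other genes of the piRNA pathway, from a list of 20 of which 18 were listed and 17 tested, divided evenly, with 10 positive, 7 negative and a median of 0.029. edgeR called 0 of them, with 1 higher and 2 lower at an unadjusted p of 0.05 (8.85% and 18.8% of all genes). Ybx2, an RNA-binding protein of germ cells, was at 1334, 1415 and 1292 FPKM in the libraries labelled cKO, against 1286, 1184 and 906 in those labelled control (log2 fold change 0.36, SE 0.15, adjusted p = 0.18). Hsp90aa1, the chaperone that works with FKBP6, was at 597 ± 26.5 FPKM in the libraries labelled cKO and 549 ± 74.2 in those labelled control (log2 fold change 0.22, SE 0.14, adjusted p = 0.304; SD, n = 3 each). On the other side were Spin1, a histone reader that binds SPOCD1, at 7.70, 7.15 and 7.19 FPKM under the cKO label, against 11.8, 9.43 and 21.6 under the control label. Mov10, the broadly made paralog of Mov10l1, was at 5.25, 5.50 and 5.38 FPKM under the cKO label, against 9.11, 6.41 and 12.1 under the control label. Both were called lower by DESeq2 (adjusted p = 0.0319 and 0.0484), which called 9.38% of all genes lower. Neither was called by edgeR (adjusted p = 0.166 each), with log2 fold changes of -0.85 (SE 0.27) and -0.67 (SE 0.21).

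Other chromatoid body genes, all 17 of a list of 17, had 10 positive and 7 negative differences and a median of 0.11. Of these, 0 were called by edgeR, with 5 higher and 4 lower at an unadjusted p of 0.05 (8.85% and 18.8% of all genes). DESeq2 called 1, Dicer1, lower, against 9.38% of all genes. Pabpc1, the poly(A)-binding protein, averaged 979.7 ± 20.9 FPKM in the libraries labelled cKO and 844 ± 121 in those labelled control, and the testis chaperone Hspa2 423 ± 9.97 and 365 ± 58.3 (log2 fold change 0.31 for each; SE 0.14; edgeR adjusted p = 0.195 for each). The 3 genes with the smallest p all lay lower under the cKO label. Ago2 and Ago3, Argonaute proteins of microRNAs and siRNAs, averaged 2.27 ± 0.304 and 1.73 ± 0.252 FPKM in the libraries labelled cKO, against 3.46 ± 0.303 and 2.41 ± 0.152 in those labelled control (log2 fold change -0.51, SE 0.14, and -0.49, SE 0.15; edgeR adjusted p = 0.166 for each). Dicer1, which cuts microRNA precursors, averaged 2.40 ± 0.0473 and 3.84 ± 0.869 (log2 fold change -0.56, SE 0.16; edgeR adjusted p = 0.166, DESeq2 adjusted p = 0.0418). All libraries labelled cKO lay below all labelled control for these 3 genes, control replicate 2 included, as they did in scaled counts for 19.8% of all genes. The other 2 Argonaute genes of the list differed in sign, with Ago1 at -0.72 and Ago4 at 0.17.

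Members with and without an E-box in the promoter window overlapped widely in their differences. The 11 tested genes with CACGTG had a median log2 fold change of 0.24 (from -0.17 for Wdr77 to 0.39 for Pld6), and the 13 tested genes whose windows lacked it had 0.21 (from -0.75 for Snd1 to 0.38 for Kif17).

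The length by which FPKM is scaled differed between tables for 18 of 31 members, those with several transcripts, and was the same in all 6 for the other 13. Tdrd12 had the widest range, 13.3% of its mean length, with 3970 ± 298 bases in the libraries labelled cKO and 4129 ± 169 in those labelled control (SD, n = 3 each). The ranges of Tdrkh, Exd1, Rnf17 and Tdrd3 were 6.77%, 7.75%, 5.24% and 5.02%. For Tdrkh the mean length was 3862 bases under the cKO label and 3776 under the control label. Its log2 fold change was 0.10 with TMM, 0.0046 by library totals and -0.017 by FPKM. The parts of scaling and length in this change of sign were not tested.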

How the data were processed

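Poly(A) RNA was sequenced from 6 testis libraries, 3 labelled cKO and 3 labelled control. Per the submitters' processing notes, bcl2fastq 2.16, HISAT2 2.0.4, Bowtie2 2.2.5, RSEM, DESeq2 and build mm10 were used, with no role given. Per the file headers, the deposited tables hold an expected count (not normalized) and an FPKM value that the authors normalized for transcript length and library size; the lowest FPKM listed is 0.01, and genes absent from a table count as 0. Whether counting used strand is not stated, so overlapping antisense genes are uncertain.

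For testing, each expected count was rounded; the test was that of edgeR 4.0.16 under R 4.3.3, after filterByExpr (minimum count 10, minimum total 15; 18269 genes), and TMM scaling: the quasi-likelihood F-test with Benjamini-Hochberg adjustment over all genes at 0.05. Log2 CPM used a prior count of 2. The common coefficient of variation between libraries was 22.8%. Fold changes are labelled cKO over labelled control. Alternatives were other scalings and filters, DESeq2 1.42.0, limma 3.58.1 on log2(FPKM + 1) and log2(FPKM + 0.1) at an FPKM of at least 1 in 3 libraries, leaving out each library, and the replicate number as a block. The scripts were tested on simulated counts that spread less between libraries than these data. That run checked the code and cannot show how the tests perform here.

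The members and lists were chosen with earlier results of these data known. All members are named, with values per library for the 10 highest by FPKM, the 6 with the smallest p and any untested gene; lists gave their 3 smallest p (pathways) and their 2 most abundant genes. Values per library of Fkbp6 and L3mbtl2, outside that rule, were added after they were seen. A protein comparison planned for the PIWI and GTSF genes was not made.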

Additional observations from a re-analysis of the deposited data

How the results depend on the processing

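The direction of the members' median was the same under every alternative run, from 0.11 by library totals to 0.35 without the library labelled control replicate 2; with members matched by symbol alone, an alternative chosen after seeing the data, it was 0.21. Scaling by library totals moved the median of all genes to -0.10, so the members stood above all genes by about the same amount. Members called higher ran from 0 to 10 and members called lower from 0 to 1 when a library was left out, and both were 0 under every other alternative. For L3mbtl2, DESeq2 gave 0.69 (adjusted p = 0.000757), and leaving out a library gave 0.64 to 0.73 (adjusted p = 0.00848 to 0.377 in edgeR). On FPKM, limma gave it 0.19 to 0.20 (adjusted p = 0.22 to 0.278). Genes near 0 changed sign. By library totals Mov10l1 was -0.0054 and Dnmt3l -0.016. On FPKM, with pseudocounts of 1, 0.1 and 1 without a filter, Tdrkh was -0.017, -0.017 and -0.017 and Dnmt3l -0.012, -0.012 and -0.012. Without a library, Mov10l1 ran from -0.0015 to 0.25, Tdrkh from -0.0069 to 0.26, Morc1 from -0.10 to 0.088 and Dnmt3l from -0.072 to 0.19. The causes of these changes were not tested. Replicate numbers did not pair the samples: same-numbered deviations correlated at 0.043, -0.007 and -0.039. With the replicate number as a block, the members' median was 0.23, 0 were called in either direction and L3mbtl2 had an adjusted p of 0.215. The ratios kept their direction; with the block their exact sign-flip p were 0.5, 0.25 and 0.25 for Piwil1 to Piwil2, Tdrd6 to Tdrd1 and Wdr77 to Prmt5. Depth limits Piwil4, Dnd1 and Morc1.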
